A study of Mus musculus with 72 samples.

Results

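The collagen genes were taken as the protein-coding genes of GENCODE vM1 whose symbol is Col, a number, the letter a and a number, and 43 of 22367 protein-coding genes met this rule. Each gene was given a window, its gene body with 20 kb on either side on the mm9 genome, and peaks of ChIP-seq were counted in it. Windows of neighbouring genes were merged where they met, so the 43 genes lay in 36 regions of 6700 kb in all, and 13 of the genes shared a window with another collagen gene and are not independent of it. The genes were long, with a median of 114 kb against 15.4 kb for all protein-coding genes. They comprised 11 fibrillar collagens, 9 fibril-associated collagens (FACIT), 6 basement membrane, 6 beaded filament, 4 transmembrane and 3 short-chain collagens, 2 multiplexins, and types VII and XXVIII.

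Mouse embryonic fibroblasts (MEFs) of strain C57BL/6 with the genotype Hmgn1+/+n2+/+ (WT) were compared with MEFs of genotype Hmgn1-/- n2-/- (DKO) in which the genes of the nucleosome-binding proteins HMGN1 and HMGN2 are disrupted. No treatment is named for either group, and the number of embryos or cultures behind a library is not given in the sources used here. Chromatin was immunoprecipitated with antibodies to H3K27ac, P300, Brd3, CEBPB and H3K27me3, with 2 biological replicates per genotype and antibody, 20 of the 72 samples of the series. The deposited lists hold peaks called by MACS2 against input in each library, with a fold enrichment and a −log10 q for each peak, and no read counts, so peak number, covered length and fold enrichment were compared here, and gene expression was not. Nothing in a peak list measures the deleted genes, so the genotype labels were not checked against them.

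Collagens are the main structural proteins of connective tissue, and fibroblasts are their principal source. Fibrillar collagens such as types I, III and V build the fibres, FACIT collagens sit on fibre surfaces, and type IV forms the sheet under epithelia and around vessels. H3K27ac is a histone mark of active promoters and enhancers, P300 is an acetyltransferase that deposits it, Brd3 is a bromodomain protein that binds acetylated histones, CEBPB is a sequence-specific transcription factor of the bZIP family, and H3K27me3 is the mark left by Polycomb.

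Fibroblast identity was read from H3K27ac peaks within 1000 bp of gene starts. Of 12 fibroblast markers, 11 to 12 had such a peak in every library. None of 4 stem cell, 4 epithelial and 3 endothelial markers had one, whereas 2 of 5 blood markers and 1 of 3 cartilage markers did, in WT and DKO alike. Library depth is unknown. The local background of a peak, solved from its fold enrichment and −log10 p, gave a rough guide to it: for H3K27ac its lowest value was 1.44 to 1.64 reads across WT libraries and 1.77 to 1.87 across DKO libraries. For P300 it was 1.15 to 1.58 and 1.22 to 1.27, and for Brd3 1.75 to 1.89 and 1.24 to 1.54. It could not be solved for CEBPB. This background therefore moved with genotype for H3K27ac and Brd3, in opposite directions, and its part in the results was not tested.

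Around the collagen genes, DKO cells had fewer peaks of Brd3, CEBPB and P300 than WT cells, and about the same number of H3K27ac peaks. For Brd3 the merged windows held 209 and 223 peaks (WT1 and WT2) against 60 and 74 (DKO1 and DKO2), a log2 ratio of means of -1.69. They held 62 and 66 CEBPB peaks in WT and 18 and 22 in DKO (log2 ratio -1.68), and 46 and 34 P300 peaks in WT and 19 and 20 in DKO (log2 ratio -1.04). For none of these 3 antibodies did the genotypes overlap.

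H3K27ac gave 684 and 668 peaks in WT and 687 and 697 in DKO, a log2 ratio of 0.03, and H3K27me3 gave 1 peak in a single DKO library and none in the other 3. The whole lists moved almost as far as the collagen windows: their log2 ratios were -1.65 for Brd3, -1.50 for CEBPB and -1.01 for P300. The collagen windows took 0.666% and 0.674% of the Brd3 peaks in WT against 0.669% and 0.641% in DKO, and these shares overlapped. Those of P300, 0.628% and 0.630% against 0.639% and 0.602%, overlapped too, whereas CEBPB had 0.437% and 0.449% in WT and lower shares, 0.368% and 0.413%, in DKO. With the same number of top-ranked peaks taken from every library, the collagen log2 ratios were 0.38 for Brd3, 0.38 for CEBPB and 0.04 for P300. This setting makes the whole lists equal by construction, so a fall of the whole list cannot show in it.

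For H3K27ac peak numbers the collagen windows and the whole list had opposite signs. The log2 ratio over the whole list was -0.13, and the share of its peaks in the collagen windows was 0.806% and 0.788% in WT and 0.893% and 0.898% in DKO. In base pairs covered the collagen windows were higher in DKO and the whole list overlapped between genotypes. H3K27ac peaks covered 413 and 380 kb of the collagen windows in WT and 454 and 474 kb in DKO, a log2 ratio of 0.23. The whole list covered 50.5 and 48.3 Mb in WT and 48.2 and 50.2 Mb in DKO, a log2 ratio of -0.01. The lowest local background was also higher in the DKO libraries of this antibody, as given above. No p is given for these sums over genes chosen with earlier results known, and an exact permutation test of 2 against 2 libraries cannot give one below 0.333.

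**Figure D1:**
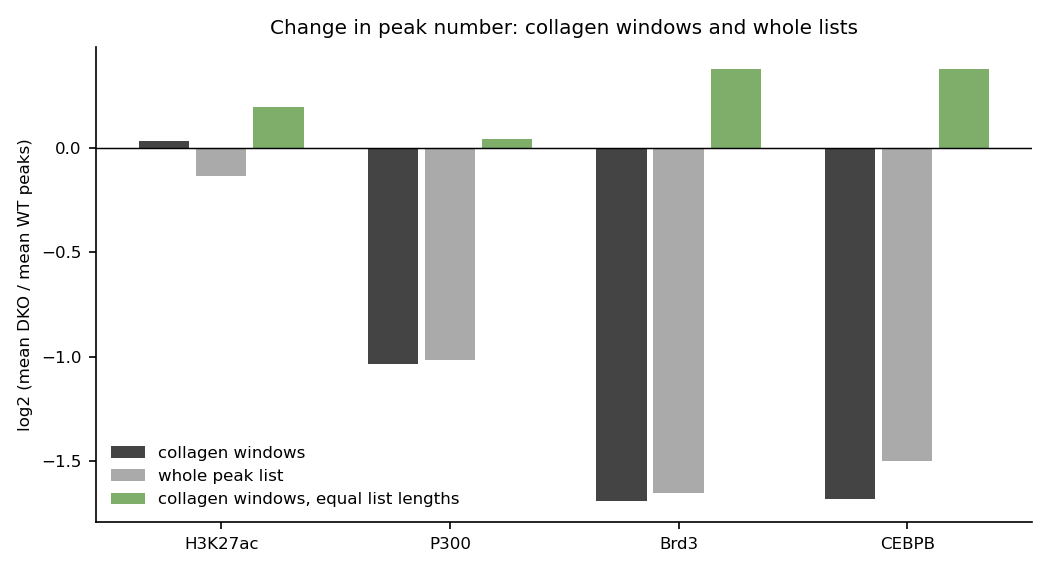
Bars give the log2 ratio of the mean DKO to the mean WT peak number for each antibody (2 libraries per genotype), in the collagen windows, over the whole peak list, and in the collagen windows with the same number of top-ranked peaks taken from every library. Brd3, CEBPB and P300 bars for collagen windows (-1.69, -1.68 and -1.04) end close to those of the whole lists, and with equal list lengths the 4 bars lie at or above 0. Equal lengths take away a change of the whole list by construction.

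H3K27ac was present at 42 of the 43 genes, and only Col9a1 had no peak in any library. The genes with most peaks were Col5a1, Col5a2, Col4a2 and Col8a1, which encode chains of type V collagen, a fibril-nucleating type, of type IV and of the short-chain type VIII. Of the 43 genes, 40 had at least 4 peaks summed over the 4 libraries and were tested, a filter that a gene can pass through one genotype alone. Their peak numbers did not overlap between genotypes at 9 genes with lower and 8 with higher numbers in DKO, against 23.6% and 7.16% of all genes tested.

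Peak numbers were compared by limma over all genes, which called 1 collagen gene, higher in DKO (1.51% of all genes were called in that direction and 4.01% lower). This was Col13a1, a transmembrane collagen, at 0 peaks in both WT and 2 in both DKO libraries. It passed the filter through its DKO peaks alone, so it could only be higher. The call ended with the replicate number as a block (limma adjusted p = 0.167), and no collagen gene was called with 5 kb flanks. Replicates that give the same peak number have a spread of 0, and 781 of the 846 genes that limma called for H3K27ac were of this kind, Col13a1 among them. A test with the spread pooled over genes of like peak number was therefore added after the values were seen. On simulated peak numbers this test, too, called more unchanged genes than its threshold allows. It called 2 collagen genes lower and 5 higher, against 5.12% and 1.23% of all genes.

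Col14a1, a FACIT collagen known from tendon and skin, had the smallest p among the H3K27ac gains in the pooled test, while Col13a1 had the larger log2 difference. The Col14a1 window (gene at chr15:55139305-55352358) held 6 and 10 peaks in WT and 25 and 23 in DKO. Its log2 difference was 1.51 (SE 0.168, adjusted p = 3.95e-15 in the pooled test). By limma the SE was 0.294 and the adjusted p was 0.227. The peaks covered 2.79 and 3.20 kb in WT and 9.15 and 11.1 kb in DKO, so both measures lay apart. Of its 28 sites, 8 were called in both DKO and no WT library and 0 in both WT and no DKO library. Within 1000 bp of an annotated start each DKO library had 1 peak and the WT libraries had none. These were different peaks, at -1.179 to -0.942 kb from the gene start in DKO1 (fold enrichment 4.68) and at 0.468 to 0.659 kb in DKO2 (4.25).

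Col12a1, a FACIT collagen that associates with type I fibres, rose in the same test. It held 35 and 37 H3K27ac peaks in WT and 49 and 57 in DKO. Its log2 difference was 0.54 (SE 0.168, adjusted p = 0.028 in the pooled test, and limma adjusted p = 0.211). At 2 of its 19 sites called in all 4 libraries, fold enrichment was also higher in DKO by limma, from 4.96 and 5.07 to 8.69 and 8.95 in an intron at chr9:79454701-79455853 and from 5.28 and 5.25 to 10.1 and 9.03 at an exon at chr9:79493522-79495364 (adjusted p = 0.0451 and 0.0383). With both genes, the 9 FACIT genes went from 68 and 80 peaks to 100 and 108. The 7 others had 27 and 33 peaks in WT and 26 and 28 in DKO, which overlapped.

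**Figure D2:**
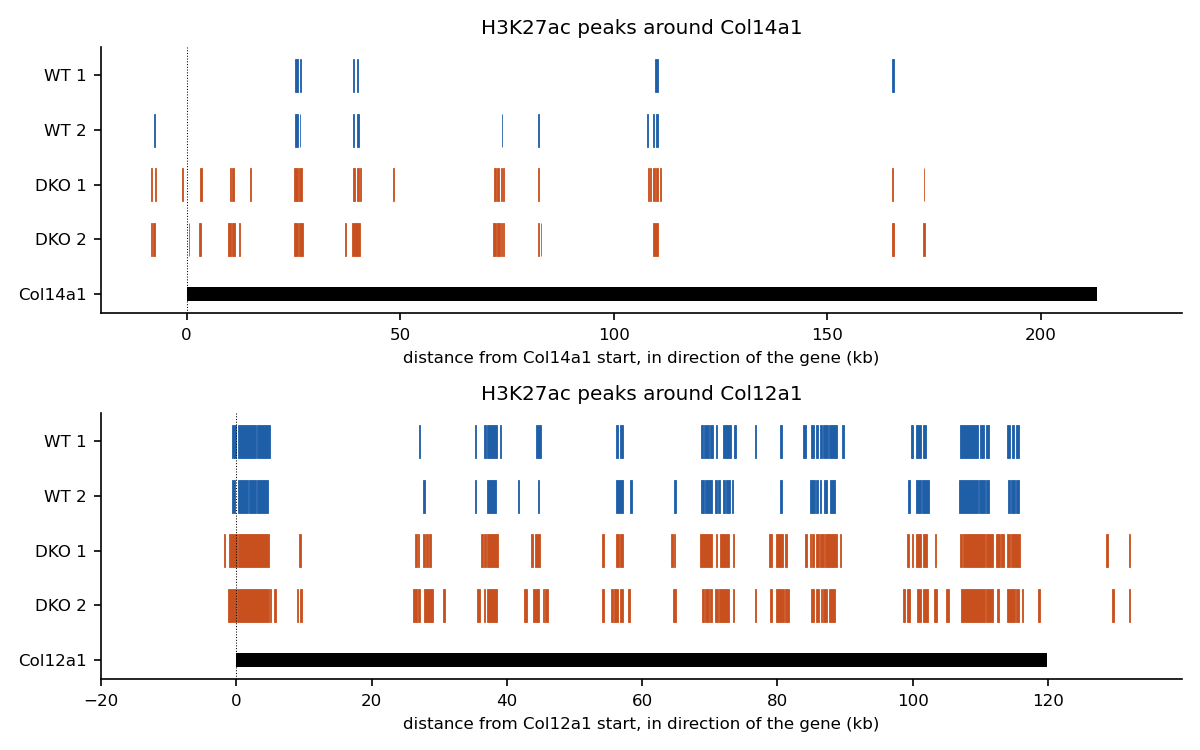
H3K27ac peaks around Col14a1 (top) and Col12a1 (bottom) by distance from the gene start in kb, WT libraries in blue and DKO libraries in orange, with the gene body as a black bar. Col14a1 has 6 and 10 peaks in WT and 25 and 23 in DKO, with DKO blocks near the start where WT has none, and Col12a1 has wider and more frequent blocks in DKO.

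Col27a1, a fibrillar collagen of cartilage, rose from 9 and 8 peaks in WT to 17 and 15 in DKO (log2 difference 0.84, SE 0.209, adjusted p = 0.00253 in the pooled test). Col6a6, a chain of the beaded filament type VI, rose from 4 and 6 to 10 and 10 (log2 difference 0.89, adjusted p = 0.00316 in the pooled test). Limma called neither Col27a1 nor Col6a6 (limma adjusted p = 0.104 and 0.280). The 2 genes that fell were Col4a3, a basement membrane chain of the kidney glomerulus, from 5 and 6 to 2 and 3, and Col23a1, a transmembrane collagen, from 4 and 5 to 2 and 2 (adjusted p = 0.0248 and 0.0448 in the pooled test). Their limma adjusted p were 0.261 and 0.124.

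The fibrillar collagens that fibroblasts make in bulk did not share the gain in peak number. Col5a1 had 94 and 97 H3K27ac peaks in WT and 78 and 71 in DKO, and Col1a2 had 32 and 36 in WT and 26 and 28 in DKO. Both pairs of genotypes lay apart without passing a test (limma adjusted p = 0.197 and 0.297). Col1a1 at 17 and 18 against 18 and 14, Col3a1 at 31 and 29 against 35 and 31, and Col5a2 at 83 and 69 against 73 and 71 peaks overlapped between genotypes.

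Covered length was compared beside peak number. At Col1a2, H3K27ac covered 34.8 and 32.5 kb in WT and 36.1 and 36.0 kb in DKO, although peaks were fewer, and at Col5a1 it covered 52.3 and 51.4 kb in WT and 41.0 and 43.9 kb in DKO. Over the 43 genes, covered length was higher in both DKO libraries at 18 genes and lower at 6, all among the 40 genes tested, against 20.2% and 33.5% of all genes tested. The 18 included Col1a1 (32.6 and 31.4 kb in WT, 33.2 and 34.2 kb in DKO), Col3a1 (19.06 and 16.995 kb against 22.26 and 22.24 kb) and Col4a1 (37.0 and 32.5 kb against 49.5 and 54.2 kb). No test was made of covered length.

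**Figure D3:**
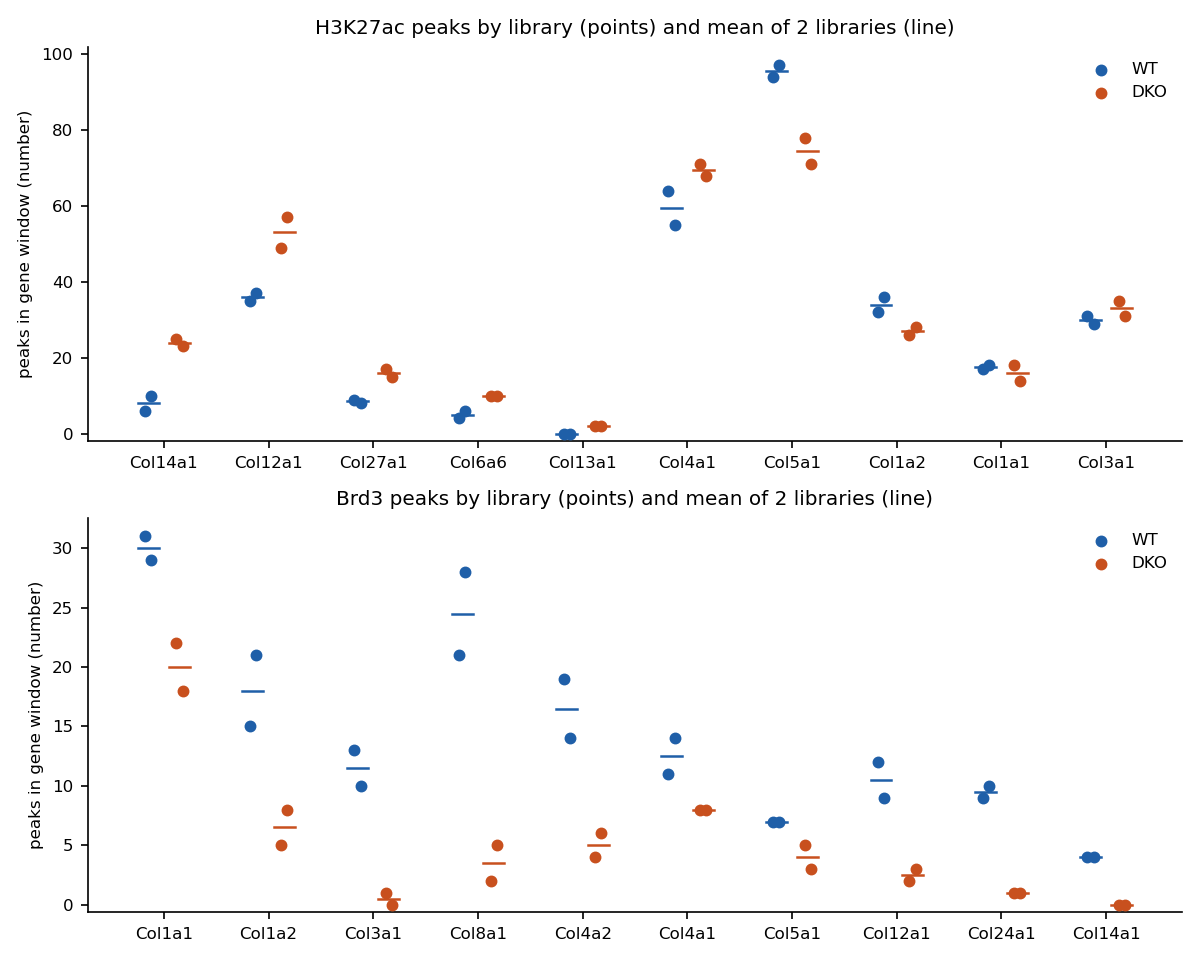
Peaks per gene window in each library (points) and the mean of 2 libraries (lines), WT in blue and DKO in orange, for H3K27ac (top) and Brd3 (bottom). DKO points lie above WT at Col14a1, Col12a1, Col27a1, Col6a6, Col13a1 and Col4a1 for H3K27ac, and below WT at the 10 genes shown for Brd3.

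Several other collagens of fibroblasts overlapped between genotypes in H3K27ac. Col6a1 had 6 and 8 peaks in WT and 6 and 6 in DKO, Col6a3 had 15 and 13 against 14 and 12, and Col18a1, the multiplexin that releases endostatin, had 6 and 4 against 5 and 5. Col6a2, with 6 and 5 in WT and 4 and 3 in DKO, did not overlap and did not pass. Col4a1 and Col4a2, which encode the chains of the common basement membrane collagen from starts that overlap, had 64 and 55 against 71 and 68, without overlap and past neither test, and 77 and 73 against 66 and 83, with overlap.

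At promoters, H3K27ac was about as frequent in both genotypes. A peak within 1000 bp of a start was present in both WT libraries at 18 genes and in both DKO libraries at 19, against 49.6% and 48.7% of all protein-coding genes, and 19 genes had one in no library. The site that begins 55 bp from a Col1a1 start and runs over the gene, at chr11:94797622-94814638, had fold enrichments of 29.9 and 28.3 in WT and 36.7 and 35.1 in DKO (limma adjusted p = 0.437). The site over the Col3a1 start at chr1:45367268-45370986 had 20.31 and 19.98 in WT and 16.2 and 21.3 in DKO, which overlapped. Over the 5′ end of Col1a2, at chr6:4452199-4455502, it was 25.88 and 29.09 in WT and 18.05 and 17.56 in DKO (log2 difference -0.62, SE 0.221, limma adjusted p = 0.106). The site that begins inside the gene at chr6:4455645-4461898 had 22.6 and 21.6 against 27.1 and 22.6 and a difference of 0.17.

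Of 873 H3K27ac sites in the collagen windows, 37 (4.24%) were WT-only, called in both WT and no DKO library, and 65 (7.45%) were DKO-only. Over all H3K27ac sites the shares were 5.83% and 4.4%. Col5a1 held 11 of the WT-only sites, among them the strongest, in an intron at chr2:27854327-27854652 with fold enrichments of 5.96 and 6.34. Col12a1 held 9 of the DKO-only sites and Col14a1 8. Of the DKO-only sites the one with the highest mean −log10 q was intronic to Col24a1, a fibrillar collagen of bone, at chr3:145036551-145037070, with fold enrichments of 7.35 and 5.96 in DKO.

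At the 284 sites called in all 4 libraries, limma called fold enrichment lower at 7 and higher at 4, against 3.47% and 1.68% of all sites tested. The balance of directions was not stable: with the median over all sites taken off 6 were lower and 6 higher, and without WT replicate 1 there were 3 lower and 6 higher. The largest gain was again in an intron of Col24a1, at chr3:145084487-145085962, from 4.88 and 4.73 in WT to 12.4 and 11.3 in DKO (log2 difference 1.30, SE 0.22, adjusted p = 0.0101). The largest loss was at the promoter of Tmem106c in the flank of Col2a1, at chr15:97794006-97794501, from 13.45 and 13.96 to 5.61 and 4.88 (log2 difference -1.39, adjusted p = 0.00908). A site downstream of Col6a3 at chr1:92646379-92646853 had 13.7 and 10.9 in WT and 4.77 and 6.88 in DKO (adjusted p = 0.0258). The other 8 sites called were 5 lower ones, in the windows of Col3a1 and Col5a2 (shared), Col5a2, Col7a1, Col8a1 and Col11a1, and 3 higher ones, in Col8a1 and, at the pair of sites given above, Col12a1.

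Brd3 peaks were present at 35 of the 43 genes in at least 1 library. Every class of collagen had fewer peaks in both DKO libraries than in both WT libraries. Fibrillar genes went from 91 and 97 peaks to 37 and 38, basement membrane genes from 28 and 28 to 10 and 11, beaded filament genes from 18 and 21 to 3 and 4, and FACIT genes from 30 and 25 to 4 and 8. Of 29 genes tested, 26 had fewer peaks in both DKO than in both WT libraries, and 65.5% of all genes tested did so too. None had more peaks in both DKO libraries (0.742% of all genes). Limma called 5 genes lower and 0 higher (24.2% and 0.543% of all genes), namely Col6a6, Col12a1, Col14a1, Col18a1 and Col24a1, of which 3 had tied replicates. Col14a1 and Col18a1 had no DKO peak and passed the filter through WT alone, so they could only be lower. The pooled test called 20 lower and 0 higher, against 51.6% and 0.0453% of all genes.

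Col1a1, which encodes the major chain of type I collagen, had the most Brd3 peaks. WT libraries had 31 and 29 and DKO libraries 22 and 18, a difference that passed neither test (log2 difference -0.57). In covered length the difference at Col1a1 was larger, 20.9 and 20.9 kb in WT and 6.21 and 7.79 kb in DKO, with long stretches over the gene body in WT and short peaks in DKO. Col1a2, the second chain of type I, went from 15 and 21 peaks to 5 and 8 (log2 difference -1.35, SE 0.366, adjusted p = 0.000838 in the pooled test). Its limma adjusted p was 0.106.

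Col3a1, the type III collagen of skin and vessels, went from 13 and 10 Brd3 peaks in WT to 1 and 0 in DKO, the largest Brd3 difference among the collagen genes on the log2 scale (log2 difference -3.13, SE 0.366, adjusted p = 2.38e-14 in the pooled test). Its limma adjusted p was 0.0525. The 1 remaining peak lay over the gene start, with a fold enrichment of 3.96, where the WT peaks over the start had 4.49 and 6.66. H3K27ac at the same gene was 31 and 29 against 35 and 31 peaks.

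Col8a1, a short-chain collagen of vessels, went from 21 and 28 to 2 and 5, the largest difference in number of peaks (log2 difference -2.57, adjusted p = 4.56e-10 in the pooled test). Its limma adjusted p was 0.0757. Col4a2 went from 19 and 14 to 4 and 6, Col24a1 from 9 and 10 to 1 and 1, and Col14a1 from 4 and 4 to 0 and 0, in opposite direction to its H3K27ac. Col12a1, also higher in H3K27ac, went from 12 and 9 Brd3 peaks to 2 and 3. All 4 passed the pooled test. With lists of equal length the log2 difference turned to 0.23 at Col1a2, 0.29 at Col8a1, 0.66 at Col4a2 and 0.79 at Col12a1, was 0 at Col24a1 and shrank to -1.08 at Col3a1, and limma then called 0 collagen genes.

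Fewer Brd3 peaks were also called in the windows of other collagens of fibroblasts. Col5a2 went from 4 and 10 to 1 and 2 Brd3 peaks, Col6a1 from 5 and 6 to 1 and 0, Col6a2 from 2 and 3 to 1 and 0, Col6a3 from 8 and 10 to 0 and 3, and Col18a1 from 2 and 2 to 0 and 0, each past the pooled test. The WT peaks of the Col18a1 window lay at the promoter of Slc19a1 in its flank, save 1 in a Col18a1 intron in WT2. Col4a1 with 11 and 14 against 8 and 8 and Col5a1 with 7 and 7 against 5 and 3 did not overlap between genotypes but passed neither test.

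**Figure D4:**
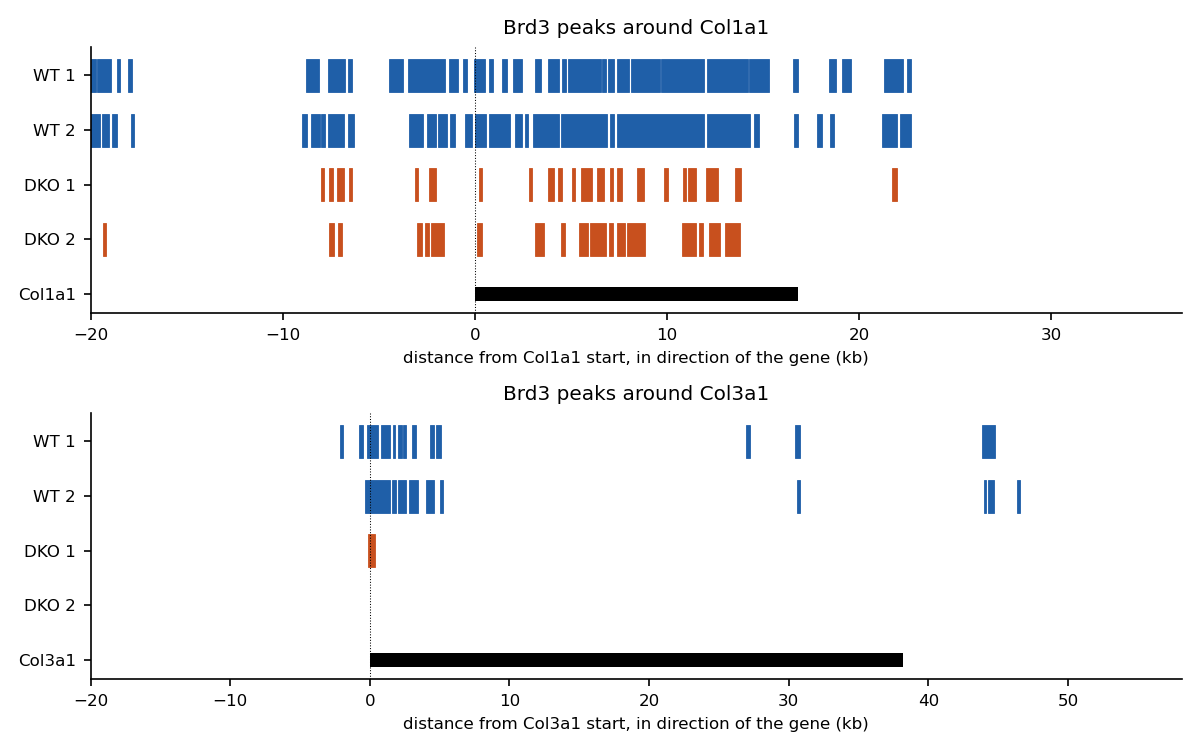
Brd3 peaks around Col1a1 (top) and Col3a1 (bottom) by distance from the gene start in kb, WT libraries in blue and DKO libraries in orange, with the gene body as a black bar. WT peaks in the Col1a1 window cover 20.9 kb in both libraries and DKO peaks 6.21 and 7.79 kb, and Col3a1 keeps 1 peak, at its start, in 1 DKO library.

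A Brd3 peak within 1000 bp of a start was found in both WT libraries at 15 genes and in both DKO libraries at 7, against 39.3% and 17.7% of all protein-coding genes. The Col1a1 start was among those kept. The site over it, at chr11:94797492-94798106, had fold enrichments of 5.10 and 6.43 in WT and 6.61 and 6.23 in DKO (log2 difference 0.16, limma adjusted p = 0.648), while the 3 nearest sites around it, at 158, 707 and 857 bp from a start, were WT-only. At Col1a2, the site that begins 18 bp from a start had 8.37 and 8.42 in WT and 3.65 in 1 DKO library. The site over a start, at chr6:4455148-4455501, was called in 1 library of each genotype, with 5.76 in WT and 6.03 in DKO, and the sites 30 and 386 bp from a start were each called in 1 WT library alone. Around the shared start region of Col4a1 and Col4a2 there were 1 and 2 peaks in WT and 4 and 3 in DKO.

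The 120 bases directly upstream of the annotated Col1a1 start are shown because Col1a1 had the most Brd3 peaks and its start held a Brd3 site called in all 4 libraries. They come from mm9, chr11:94797418-94797537, plus strand, and capitals mark CCAAT on the reverse strand, read here as ATTGG.
Col1a1: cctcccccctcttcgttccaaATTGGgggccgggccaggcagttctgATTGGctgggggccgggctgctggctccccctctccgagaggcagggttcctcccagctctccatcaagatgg
CCAAT is the site of the factor NF-Y, known from type I collagen promoters. On either strand it stood in the same stretch of 6 of 43 collagen genes (13.95%) and of 22.6% of all protein-coding genes.

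Of 276 Brd3 sites, 70 (25.4%) were WT-only and 0 DKO-only, against 27% and 0.0428% of all Brd3 sites. By mean −log10 q, the top WT-only site was that over the Col6a3 start at chr1:92740314-92740555, with fold enrichments of 7.53 and 6.36. A WT-only site at the Col5a1 promoter, at chr2:27740892-27741781, had the higher fold enrichments of 8.57 and 7.19. At the 29 sites called in all 4 libraries, limma called 4 lower and 0 higher, where 18.8% and 0.424% of all sites were called. The largest loss was 14951 bp from a Col1a2 start, upstream of the gene, at chr6:4437806-4439863, from 13.8 and 12.9 in WT to 5.20 and 5.56 in DKO (log2 difference -1.31, SE 0.236, adjusted p = 0.00667). At the Ring1 promoter in the flank of Col11a2, at chr17:34161401-34162381, it went from 12.6 and 11.4 to 5.10 and 6.13 (adjusted p = 0.0122), and in the Col1a1 body, at the promoter of Gm17329, chr11:94809598-94812869, from 9.81 and 9.66 to 5.42 and 5.13 (adjusted p = 0.0226). The fourth was at the promoter of Mff near Col4a3. These 4 calls were lost when the median over all sites was taken off (0 called), without DKO replicate 1 (0 called) and without DKO replicate 2 (0 called).

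Brd3 sites of the collagen windows that both WT libraries called lay almost always under H3K27ac. The share over all Brd3 sites was not taken, so this is not a trait of the collagen genes. Of the 70 WT-only sites, 94.3% overlapped an H3K27ac site of WT, and so did all of the 54 sites that both WT and at least 1 DKO library called.

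**Figure D5:**
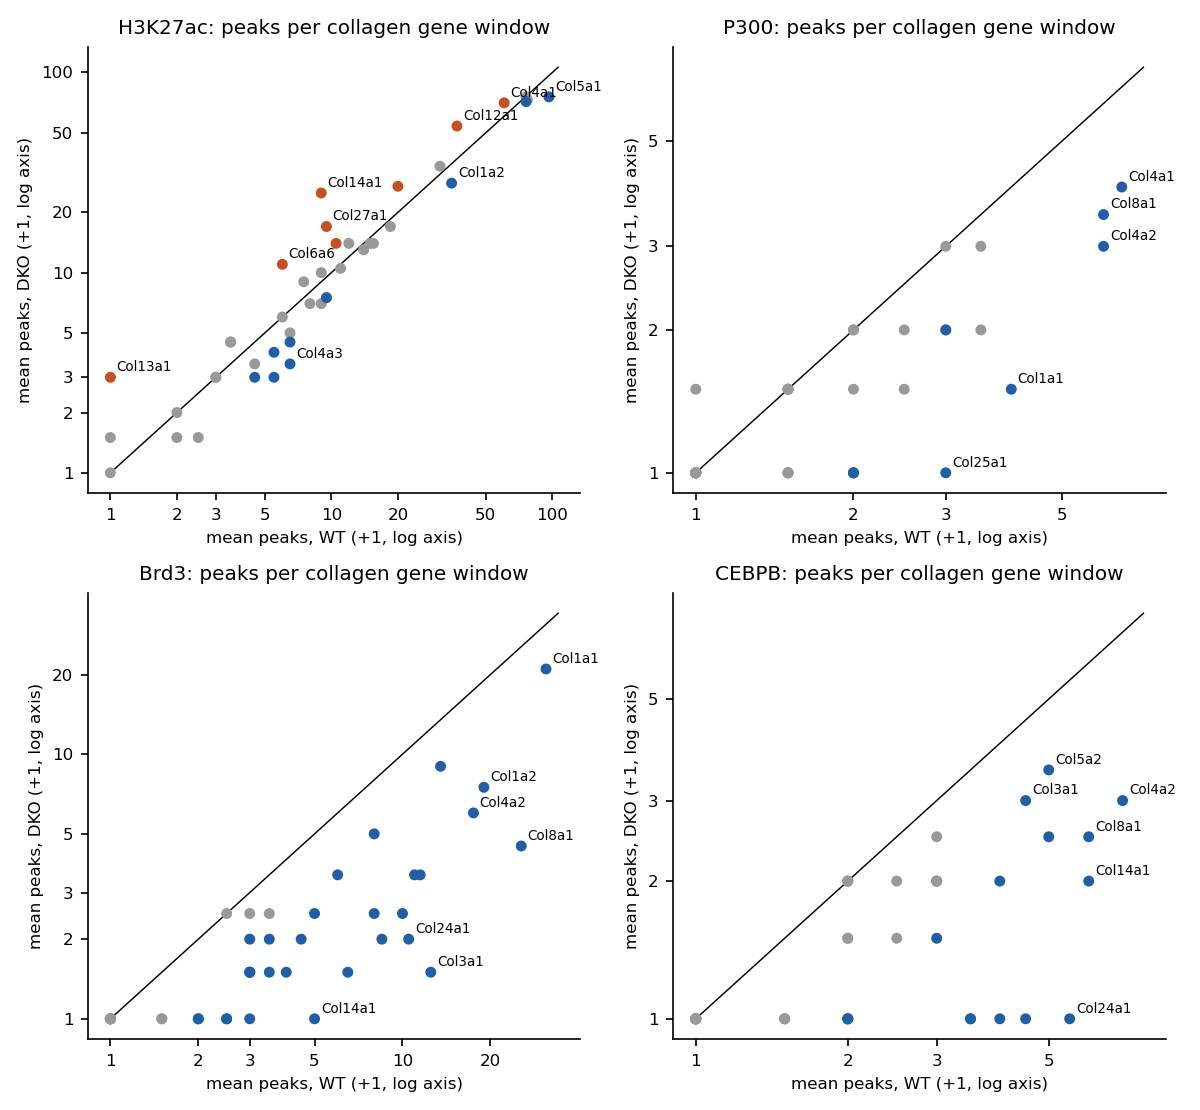
Mean peak number per collagen gene window in DKO against WT, each plus 1 on log axes, for 4 antibodies, where the line marks equal numbers. Blue points are genes with both DKO libraries below both WT libraries, orange points those with both above, grey points overlap, and H3K27ac is the only panel with orange points.

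CEBPB peaks were found at 30 of the 43 genes. Of 21 genes tested, 14 had fewer peaks in both DKO than in both WT libraries, where 53.7% of all genes tested did, and 0 had more (0.181% of all genes). Limma called 7 lower and 0 higher (36.5% and 0.181% of all genes), namely Col4a1, Col4a2, Col6a5, Col14a1, Col15a1, Col25a1 and Col28a1, 4 of them with tied replicates. Col6a5, Col15a1, Col25a1 and Col28a1, and also Col24a1, which limma did not call, had no DKO peak and passed the filter through WT alone, so they could only be lower. The pooled test called 16 lower and 0 higher (55.9% and 0.0516% of all genes).

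The basement membrane gene Col4a2 had the most CEBPB peaks, 6 and 6 in WT and 2 and 2 in DKO. Col24a1 went from 6 and 3 to 0 and 0, Col14a1 from 5 and 5 to 1 and 1, and Col25a1, a transmembrane collagen of neurons, from 3 and 4 to 0 and 0. Col8a1 went from 4 and 6 to 2 and 1. Each of these 5 passed the pooled test. With lists of equal length the log2 difference turned to 0.58 at Col4a2 and 0.29 at Col8a1 and was 0 at Col14a1.

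CEBPB peaks were few at the type I genes. Col1a1 had none in any library, and Col1a2 had 1 and 1 in WT and 0 and 1 in DKO. Col3a1 had 4 and 3 in WT and 2 and 2 in DKO, and Col5a2 4 and 4 against 2 and 3, both past the pooled test (adjusted p = 0.035 and 0.0382), though with lists of equal length the differences were 0.29 and 0. Col12a1, at 2 and 2 against 1 and 2, overlapped.

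Of 78 CEBPB sites, 26 (33.3%) were WT-only and 0 DKO-only, against 39.3% and 0.482% of all CEBPB sites. At the 16 sites called in all 4 libraries, limma called fold enrichment lower at 10 and higher at 1, against 67.4% and 4.44% of all sites. With the median over all sites taken off, 3 were lower and 5 higher. The largest loss was 7713 bp upstream of Col17a1, the collagen of hemidesmosomes, at chr19:47774297-47774550, from 18.7 and 22.5 in WT to 3.73 and 4.39 in DKO (log2 difference -2.34, SE 0.179, adjusted p = 6.34e-11). A Col4a2 intron site at chr8:11382955-11383229 went from 13.8 and 19.3 to 6.29 and 6.67 (log2 difference -1.33, adjusted p = 5.76e-07), and a Col4a1 intron site at chr8:11249893-11250126 from 20.8 and 20.9 to 9.10 and 9.78 (log2 difference -1.15, adjusted p = 1.96e-06). The Col12a1 promoter site went from 12.7 and 16.1 to 7.17 and 7.94 (adjusted p = 5.72e-05).

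The 1 site with a higher value was in an intron of Col3a1, at chr1:45375175-45375409. Its fold enrichments were 10.6 and 10.3 in WT and 15.6 and 12.8 in DKO (log2 difference 0.43, SE 0.177, adjusted p = 0.0305). The strongest WT-only site lay in an intron of Col25a1, at chr3:130070295-130070489, with 15.1 and 18.6 in WT and no peak in DKO.

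The Col25a1, Col4a1 and Col3a1 intron sites are shown with the 121 bases around their summits, plus strand of mm9, as examples that hold the CEBP core: the strongest WT-only site, the site with the largest fall among called sites that hold the core, and the 1 site higher in DKO. Capitals mark the CEBP core TTGCNNAA on either strand (TTNNGCAA on the reverse).
Col25a1 intron, WT-only, chr3:130070321-130070441: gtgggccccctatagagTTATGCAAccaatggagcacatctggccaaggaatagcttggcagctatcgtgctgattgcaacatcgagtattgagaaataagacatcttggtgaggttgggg
Col4a1 intron, lower in DKO, chr8:11249954-11250074: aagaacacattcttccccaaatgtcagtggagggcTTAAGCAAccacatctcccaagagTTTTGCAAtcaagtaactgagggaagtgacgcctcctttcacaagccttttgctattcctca
Col3a1 intron, higher in DKO, chr1:45375224-45375344: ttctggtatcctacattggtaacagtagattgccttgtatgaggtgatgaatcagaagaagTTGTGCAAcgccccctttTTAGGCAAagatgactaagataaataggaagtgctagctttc
The WT-only site holds 1 core in this stretch and both others hold 2. The Col17a1 and Col4a2 sites held no such letters within 100 bp of their summits.

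Within 100 bp of the summit the CEBP core stood at 39 of the 78 collagen sites and at 49.6% of all 17002 CEBPB sites, against 9.08% of stretches of the same length 2 kb beside the summits. It was found at 13 of the 26 WT-only collagen sites and at 7 of the 16 sites of all 4 libraries, against 48.8% and 58.4% of the same classes over the genome. The AP-1 letters TGACTCA, on either strand, stood at 3 of the 26 WT-only sites and 4 of the 16 sites of all 4 libraries, and at 13.7% and 22.8% of the same classes over the genome. At P300 sites of the collagen windows the AP-1 letters stood at 17 of 57 (29.8%), and at 38.1% of all P300 sites. The motifs do not overlap in their letters, and a match describes these bases only.

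H3K27ac was found around fewer of the CEBPB sites that both WT libraries called in the collagen windows. Of the 26 WT-only CEBPB sites, 42.3% overlapped a WT site of H3K27ac, and of the 24 sites that both WT and at least 1 DKO library called, 70.8% did. No test was made of this difference, and the shares over all CEBPB sites were not taken. The study reports higher H3K27ac levels at retained than at lost CEBPB sites in WT MEFs.

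P300 was sparse, with peaks at 27 genes and 14 genes tested. At 6 of them both DKO libraries were below both WT libraries, against 24.5% of all genes tested, and 0 were above (0.652%). Limma called 2 lower and 0 higher (7.39% and 0.507% of all genes), Col4a2 and Col28a1, both with tied replicates. The pooled test called 2 others, Col1a1 and Col25a1 (7.46% of all genes), so no collagen gene was called by both tests. With lists of equal length limma called 2 genes higher in place of these, Col8a1 and Col24a1, each with 1 peak in both WT and 2 in both DKO libraries.

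At Col1a1 there were 4 and 2 P300 peaks in WT against 1 and 0 in DKO (log2 difference -1.45, SE 0.41, adjusted p = 0.00873 in the pooled test). Col25a1 had 3 and 1 against 0 and 0 and passed the filter through WT alone, so it could only be lower. The most P300 peaks lay at Col4a1, with 5 and 6 in WT and 2 and 4 in DKO, Col4a2, with 5 and 5 against 2 and 2, and Col8a1, with 5 and 5 against 2 and 3.

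Of 57 P300 sites, 8 were WT-only and 0 DKO-only, against 15.2% and 0.632% of all P300 sites. The strongest WT-only site was in a Col4a2 intron at chr8:11323220-11323428, with 8.71 and 8.75. Of the 12 sites called in all 4 libraries none passed in fold enrichment, where 0.636% of all sites were called lower. The one with the highest mean lay in a Col8a1 intron at chr16:57671717-57672146, chosen after its values were seen, with 13.5 and 12.7 in WT and 15.8 and 16.9 in DKO.

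H3K27me3 was all but absent from the collagen windows. The 1 peak lay in an intron of Col2a1, the collagen of cartilage, at chr15:97831620-97831749 in 1 DKO library, with a fold enrichment of 5.90. The H3K27me3 lists were short, with 117 to 553 peaks, and no collagen gene had enough peaks to be tested. Among the 192 genes that had, limma called 2.6% lower, the pooled test 9.38%, and 42.2% did not overlap, and of all H3K27me3 sites 5.52% were WT-only and 0.468% DKO-only, with 0 of either in the collagen windows. H3K27me3 was not detectable at the collagen genes in lists of this length, which does not show that the mark is absent.

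The enzymes and chaperones that modify, fold, secrete and crosslink collagen were read in the same way for 28 genes, such as Lox, Serpinh1 and the prolyl hydroxylases. Brd3 peaks were called lower in the pooled test at 17 of 24 genes tested and CEBPB peaks at 7 of 7, with 0 higher, where 51.6% and 55.9% of all genes were called lower. H3K27ac peaks were called lower at 1 and higher at 1 of 26 genes (5.12% and 1.23% of all genes), and P300 peaks lower at 1 of 9 (7.46%). By limma the numbers lower were 5 for Brd3, 5 for CEBPB, 1 for P300 and 0 for H3K27ac, with 0 higher, against 24.2%, 36.5%, 7.39% and 4.01% of all genes. Genes with no DKO peak passed the filter through WT alone, so they could only be lower. These were Lepre1, Plod3, Adamts2, P4ha2 and Loxl4 for Brd3, Serpinh1, Loxl1 and Loxl2 for CEBPB, and Leprel1 for P300. Of the genes limma called, Serpinh1, Loxl1, Adamts2 and P4ha2 for CEBPB, Plod3 for Brd3 and Leprel1 for P300 had tied replicates.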

How the data were processed

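The deposited files are MACS2 narrow peak lists, one per library, on mm9. According to the study's methods and the submitters' processing notes (cutadapt 1.16, BWA, MACS2 2.1.1.20160309), the authors trimmed and mapped the reads and called peaks per library against input DNA, with no pooling of replicates. Each deposited peak carries its fold enrichment, a ratio of summit pileup over local background, and the caller's −log10 p and −log10 q, as deposited. The summit offset is deposited too, in bp. The lowest −log10 q was 2.00.

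Collagen genes were found in GENCODE vM1. A peak counted for a gene when it overlapped its window by 1 bp. Log2(peaks + 1) was tested with limma 3.58.1 in R 4.3.3 over protein-coding genes with at least 4 peaks summed over 4 libraries, with Benjamini-Hochberg adjustment at 0.05. The study tested reads with another tool, which needs reads not used here. Sites were peaks of 4 libraries merged where they overlapped, and the log2 of a site's highest fold enrichment in each library was tested with limma at sites called in all 4. On binomial simulated peak numbers limma called mainly unchanged genes, and on Poisson ones none, so the pooled test (spread averaged in up to 10 classes of summed peak number, adjusted over all genes) was added after the values were seen. It assumes that a gene varies like others of its peak number. On the binomial numbers of the 4 antibodies other than H3K27me3 it also called unchanged genes, in a larger share of its calls than the threshold of 0.05. The 2 replicates are biological per the study. The limma p-values rest on their spread, moderated over all genes or sites. The pooled p-values rest on a spread averaged over genes of like peak number, so other genes stand in for replicates. Motifs were searched with pysam 0.24.0 in the mm9 genome. Alternatives covered q, list length, flanks, summits, merging, pseudocount, filter, a replicate block and each library left out. Local background was solved with a tolerance of 0.0005 in −log10 p, with at least 85% of peaks solved.

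The members, gene lists and tests were chosen with earlier results of these data known. Named genes were 12 collagens of fibroblasts and basement membranes, and for each antibody up to 5 without overlap that differed most and up to 3 with most peaks. Genes called by a test are named besides. Named sites were the strongest WT-only and DKO-only sites (by −log10 q averaged over the genotype), the 3 largest changes past the threshold and sites at the Col1a1, Col1a2 and Col3a1 starts. Other sites named, such as those in Col12a1 and the CEBPB site in Col3a1, were chosen after their values were seen. Of 29 processing genes listed, 28 were found. Same-numbered replicates did not deviate together (correlations over genes from -0.04 to 0.02).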

Additional observations from a re-analysis of the deposited data

Results flagged for a closer look

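Peaks in the collagen windows were also found in lists that the comparisons above do not use, those of embryonic stem cells and resting B cells. The highest number in a library was 236 for CTCF, 121 for Nanog, 64 for Oct4, 27 for Sox2 and 7 for Klf4 in stem cells, and 12 for Ikaros and 6 for Ets1 in B cells. For Oct4 the libraries held 25 and 27 peaks in WT and 59 and 64 in DKO, a log2 ratio of 1.24 against 1.28 for the whole Oct4 list. For CTCF they held 223 and 228 in WT and 236 and 235 in DKO. Irf8, Oct2 and Pax5 in B cells and histone H1 in MEFs gave 0 peaks there in every library. With 2 libraries per genotype, no group was large enough to be examined for outlying libraries.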

How the results depend on the processing

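Same-length lists turned 3 sums around: with the same number of top peaks the log2 ratio in collagen windows was 0.0406 for P300, 0.379 for Brd3 and 0.379 for CEBPB, so the fall in peaks of these antibodies depends on the length of the lists, by construction. The same setting turned the Brd3 differences of Col1a2 (0.23), Col4a2 (0.66), Col12a1 (0.79), Col7a1 (0.076) and Col8a1 (0.29) and the CEBPB differences of Col3a1 (0.29), Col4a2 (0.58) and Col8a1 (0.29), and gave 0.19 for the H3K27ac sum, 4 H3K27ac, 0 Brd3, 2 P300 (both higher, against 2 lower) and 1 CEBPB genes called, 4 P300, 4 Brd3 and 2 CEBPB WT-only sites, and 4 Brd3 and 3 CEBPB DKO-only sites. For the last gene called, Col4a2, CEBPB was then higher. Merging peaks within 1000 bp gave 0.072 for the H3K27ac and -1.48 for the Brd3 sum, 10 WT-only and 17 DKO-only H3K27ac sites and 33 WT-only Brd3 sites. Base pairs covered, added after the values were seen, gave 0.23 for H3K27ac and -2.23 for Brd3, against -0.01 and -2.16 over the whole lists. A −log10 q of at least 4 called 2 H3K27ac genes, 5 kb flanks 0, and no filter 5 P300 genes. The pooled test called 7 H3K27ac, 20 Brd3 and 16 CEBPB genes. Taking off the median over all sites left 0 Brd3 sites called.

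With the replicate block, 0 H3K27ac and 4 CEBPB genes, 21 H3K27ac sites and 8 Brd3 sites were called, and other counts stayed within 1.5 times. Numbers do not pair the samples.

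Each library was left out in turn, the lone sample being taken to vary like the others. The log2 ratio of sums ranged from 0.0168 to 0.0509 for H3K27ac, -1.24 to -0.80 for P300, -1.85 to -1.55 for Brd3 and -1.83 to -1.54 for CEBPB. Genes called numbered 2 to 10 for H3K27ac, 3 to 9 for P300, 6 to 12 for Brd3 and 7 to 15 for CEBPB. WT-only sites numbered 53 to 117, 10 to 23, 76 to 145 and 28 to 42, since 1 library is then enough to call them, and DKO-only sites 100 to 167 for H3K27ac, 0 to 2 for P300, 0 to 4 for Brd3 and 0 to 1 for H3K27me3. Brd3 sites called on fold enrichment numbered 0 to 6, with 0 without DKO replicate 1 and 0 without DKO replicate 2. The cause of these moves was not tested. H3K27me3 gave no ratio, since both WT libraries are at 0. Read depth is unknown.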
